A study of Mus musculus with 7 samples.

Results

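The genes described here are the Wnt ligands, their receptors and co-receptors, the R-spondin branch that tunes receptor number, the secreted Wnt antagonists and a few readouts of β-catenin signaling. Members were chosen by symbol, with earlier results of these data known. They were the numbered *Wnt*, *Fzd*, *Sfrp*, *Dkk* and *Rspo* genes plus *Frzb*, *Wif1*, *Lgr4*, *Lgr5*, *Lgr6*, *Lrp5*, *Lrp6*, *Znrf3*, *Rnf43*, *Axin2*, *Lef1* and *Tcf7*. This gave 53 of the 52230 genes with transcripts in the files, and 43 of the 53 passed the filter on low counts.

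Wnt ligands are lipid-modified secreted proteins that bind a Frizzled receptor together with LRP5 or LRP6. Binding stops the destruction of β-catenin, which then enters the nucleus and activates genes with TCF/LEF factors, while other ligands such as WNT5A act mainly through β-catenin-independent routes. Secreted antagonists either trap the ligand (SFRP family, FRZB, WIF1) or block the LRP co-receptor (DKK1), and in the ovary the pathway is best known for the part of *Wnt4* and *Rspo1* in female gonad development.

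RNA-seq was performed on ovaries from which granulosa cells had been removed by puncturing the follicles, a residual tissue called stroma here. All mice were females of the PRKO line (allele Pgrtm1Bwo), stimulated with 5 IU eCG (PMSG in the labels) and, 44 h later, with 5 IU hCG, and ovaries were taken at 8 h post-hCG, before ovulation. The WT group (PGR +/+) had 4 libraries, numbered 1 to 4, and the KO group (PGR -/-) had 3, numbered 2 to 4. Each library pooled tissue from 3 mice, so the spread between libraries is that between pools. The mice were littermates 21 to 27 days old by the sample labels and 21 to 25 by the design text. The allele is lost in the whole body, so the KO stroma also sits beside granulosa cells that lack PGR. A KO replicate numbered 1 was not analysed here.

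The libraries held 47.4 to 63.4 M assigned reads. *Pgr* itself was listed at 19.5, 31.0, 21.5 and 16.9 CPM (counts scaled to library size after TMM normalization) in the WT libraries and at 6.13, 6.52 and 7.56 CPM in the KO libraries, with no KO library reaching the lowest WT level. The 8 fibroblast markers were all detected, with *Col1a1* at 1462 to 2216 CPM in WT and 1486 to 1756 CPM in KO. The tissue was not free of follicle cells. *Inha*, a granulosa inhibin subunit, was present at 1436 to 2203 CPM over all 7 libraries, and the 10 granulosa markers summed to 2243 to 3466 CPM in WT and 2714 to 3415 CPM in KO, with a median log2 fold change of 0.01. Of 78 tested markers of 11 cell types, edgeR and limma-voom called none and DESeq2 called 3, against 0.697% of all genes in DESeq2. At an unadjusted edgeR p under 0.05, 2 had higher and 12 had lower KO values. In either direction that was 17.95% of the markers, against 8.94% of all genes tested (3.84% higher and 5.1% lower).

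Secreted antagonists made up most of the Wnt transcripts in this tissue, and 1 gene dominated them. On the TPM scale, which is per transcript length and lets genes be compared, the antagonists held 74.8 to 78.0% of the summed TPM of all members in WT and 76.4 to 78.2% in KO. *Sfrp4*, a secreted Frizzled-related protein, alone held 49.5 to 61.3% of the summed member TPM in WT and 52.9 to 59.9% in KO. Its median WT level was 1147 TPM, against 240.0 TPM for *Frzb* and 81.8 TPM for *Sfrp1*, the next antagonists in order. The WT and KO ranges of these 3 genes overlapped.

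The ligands were led by *Wnt4* at a median WT level of 78.2 TPM, followed by *Wnt5a* at 38.99 TPM, *Wnt10b* at 30.0 TPM and *Wnt6* at 27.1 TPM. Together these 4 ligands held 92.4 to 93.8% of ligand TPM in WT and 92.8 to 93.7% in KO. The WT ranges of *Wnt5a*, *Wnt10b* and *Wnt6* ran from 36.4 to 45.7, from 20.4 to 39.1 and from 23.0 to 29.1 TPM, so only the order of *Wnt4* over the other three and of *Wnt5a* over *Wnt6* lay outside the spread between WT libraries. Among the receptors, *Lrp5* at 45.1 TPM and *Fzd1* at 44.7 TPM were level with each other, *Lrp6* was at 32.1 TPM, and no other Frizzled exceeded the 16.03 TPM of *Fzd2*. *Lgr4* at 34.4 TPM was far above *Lgr6* at 4.89 TPM and *Lgr5* at 2.83 TPM. *Tcf7* at 32.1 TPM was the most abundant of the readouts, ahead of *Axin2* at 5.25 TPM and *Lef1* at 1.39 TPM.

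**Figure D1:**
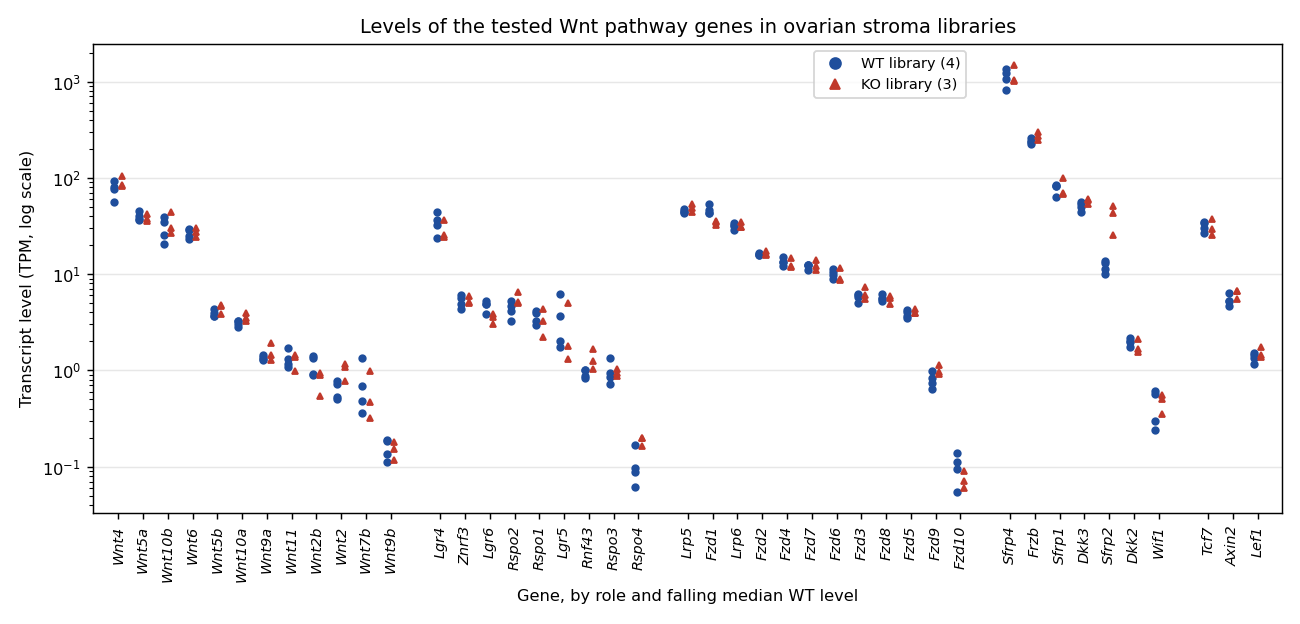
Level of each of the 43 tested genes in TPM on a log axis, with 1 point per library (circles WT, triangles KO), grouped by role in the order ligands, R-spondin branch, Frizzled and Lrp receptors, antagonists and readouts. *Sfrp4* stands at 1147 TPM in the median WT library, and *Sfrp2* and *Fzd1* are among the genes whose WT and KO points separate.

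By median WT level, 18 of the 53 members stood at 10 TPM or more, 16 between 1 and 10 TPM and 19 under 1 TPM. The 10 members under the count filter were the ligands *Wnt1*, *Wnt3*, *Wnt3a*, *Wnt7a*, *Wnt8a*, *Wnt8b* and *Wnt16* and the antagonists *Dkk1*, *Dkk4* and *Sfrp5*. No library held more than 14 reads of any of these ligands or 3 of any of these antagonists, that is at most 0.292 and 0.0596 CPM, and they were left out of the main edgeR fit. Fitted by edgeR with no filter, none of the 10 was called, and *Wnt16* alone had an unadjusted p under 0.05. *Wnt3*, a β-catenin ligand, was the only one without overlap, at 0.0577, 0.0199, 0.0887 and 0.0643 CPM in WT and at 0.122, 0.125 and 0.121 CPM in KO. That fit gave *Wnt3* a log2 fold change of 1.04 (SE 0.536, unadjusted p = 0.0729, adjusted p = 0.791).

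The members were then compared between genotypes gene by gene. The question put to each gene was whether KO stroma differed from WT stroma, tested with edgeR across all 19233 genes that passed the filter, with a call requiring an adjusted p of at most 0.05 and a log2 fold change of at least 0.5 in either direction. EdgeR called 0 of the 43 members, against 2 of all genes tested (0.0104%). It did not call the targeted gene *Pgr* either, at a log2 fold change of −1.72 (SE 0.202, edgeR adjusted p = 0.0544). A count of 0 calls therefore does not show that no member changed. Limma-voom also called 0 members. DESeq2, the test used in the study, called 1 of 43 members, *Sfrp2*, against 134 of all genes tested (0.697%). Its adjusted p alone was passed by 3 of 43 members (*Sfrp2*, *Fzd1* and *Lgr6*), against 1.2% of all genes. The study then excluded genes whose level or log2 fold change in granulosa cells was at least 2 times that in stroma. That step was not applied here.

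At an unadjusted edgeR p under 0.05 there were 5 of 43 members (11.6%), against 8.94% of all genes tested. *Sfrp2* and *Wnt2* had higher KO values and *Fzd1*, *Lgr6* and *Wnt2b* had lower ones, against 3.84% higher and 5.1% lower among all genes. This count was 9 without WT replicate 1 and 3 without WT replicate 2. In 4 of 43 members (9.30%) the KO libraries did not overlap the WT libraries, *Sfrp2* and *Rnf43* above and *Fzd1* and *Lgr6* below, against 9.05% of all genes. Both shares stood near the background of all genes. The median log2 fold change of the members was 0.00 with 22 positive and 21 negative, as it was over all genes tested (0.00), and 39 of 43 were smaller than 0.5 in size.

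**Figure D2:**
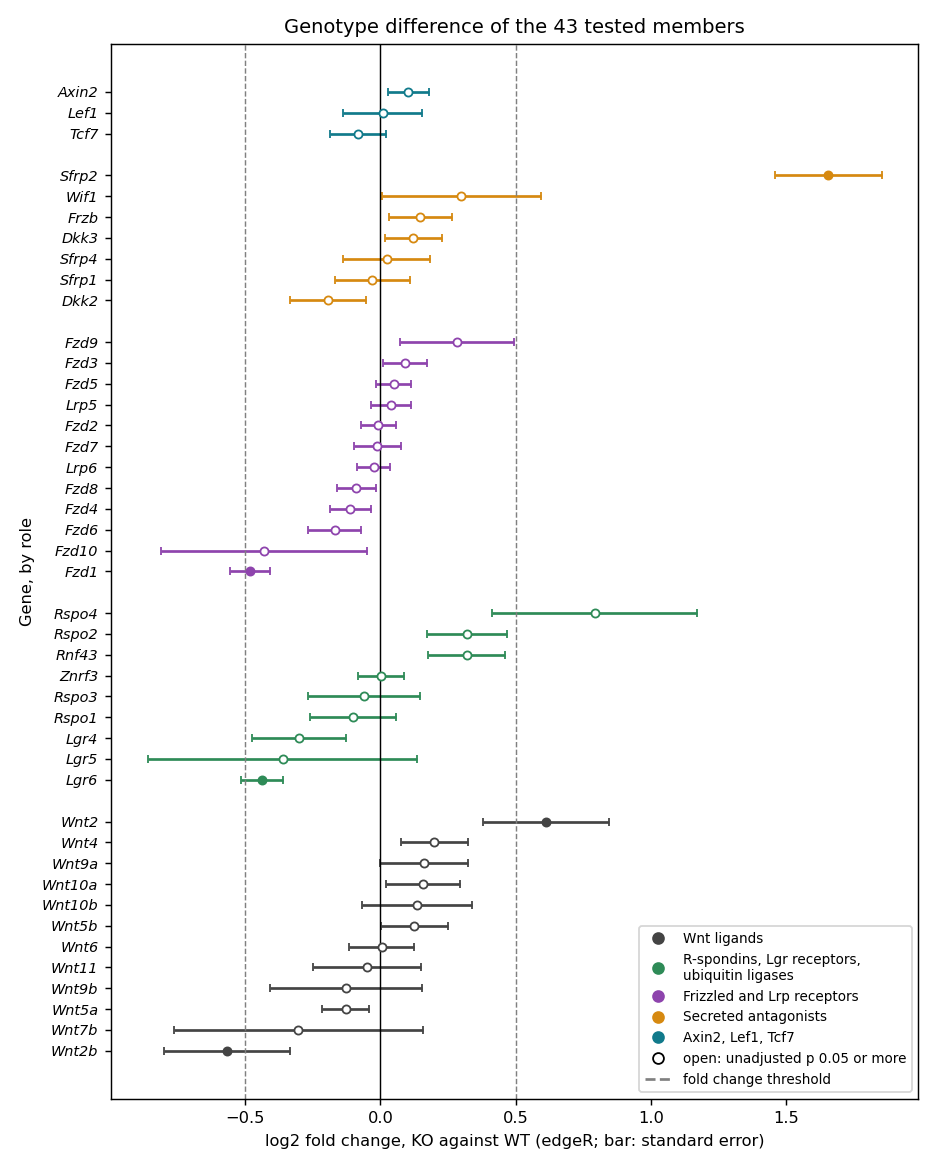
Log2 fold change of KO against WT from edgeR for the 43 tested genes, by role, with bars for the standard error and dashed lines at the fold change threshold of 0.5. Filled points have an unadjusted p under 0.05. *Sfrp2* stands apart at 1.65, and all Frizzled and Lrp receptors lie inside the dashed lines.

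Among the 12 tested ligands, 1 was higher and 1 was lower in KO at an unadjusted edgeR p under 0.05 (16.7%, against 8.94% of all genes tested). The median log2 fold change of the ligands was 0.07. *Wnt2*, a ligand that acts through β-catenin, was at 1.19, 0.696, 0.727 and 0.997 CPM in WT and at 1.53, 1.08 and 1.52 CPM in KO. The lowest KO library lay within the WT range. EdgeR gave a log2 fold change of 0.61 (SE 0.233, unadjusted p = 0.0282, adjusted p = 0.484). *Wnt2b*, a close relative of *Wnt2*, was at 2.08, 2.90, 1.93 and 2.85 CPM in WT and at 2.02, 1.15 and 1.76 CPM in KO. EdgeR gave a log2 fold change of −0.57 (SE 0.233, unadjusted p = 0.0382, adjusted p = 0.525). WT replicates 2 and 4 were the high libraries, and the other WT libraries were close to KO replicate 2. The 10 surface epithelium markers had their highest sums in those same libraries, 72.4 CPM in WT replicate 2 and 67.1 CPM in WT replicate 4, against 37.3 to 39.8 CPM in the other WT libraries and 29.0 to 49.6 CPM in KO, and *Upk3b*, a mesothelial uroplakin, was at 9.49 to 19.7 CPM in WT and 4.42 to 8.49 CPM in KO. The part of this in the *Wnt2b* values was not tested. In bulk tissue, fewer cells of a type and less RNA per cell cannot be told apart.

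The abundant ligands showed no separation by genotype. *Wnt4* was at 166.7, 214.0, 203.4 and 247.7 CPM in WT and at 232.1, 221.2 and 262.9 CPM in KO. EdgeR gave a log2 fold change of 0.20 (SE 0.124, adjusted p = 0.689). WT replicates 1 to 3 were below all KO libraries, and only WT replicate 4 lay within the KO range. *Wnt5a*, the main β-catenin-independent ligand, was at 135.0, 109.0, 132.2 and 113.2 CPM in WT and at 110.0, 108.2 and 117.5 CPM in KO (edgeR log2 fold change −0.13, SE 0.086, adjusted p = 0.717). *Wnt10b* ranged from 34.3 to 59.4 CPM in WT and from 42.3 to 64.1 CPM in KO, and *Wnt6* from 28.5 to 37.9 and from 28.0 to 37.0 CPM. The remaining 6 tested ligands (*Wnt5b*, *Wnt7b*, *Wnt9a*, *Wnt9b*, *Wnt10a* and *Wnt11*) had log2 fold changes between −0.30 and 0.16, with adjusted edgeR p of 0.788 or more.

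R-spondins are secreted proteins that bind LGR4, LGR5 or LGR6 and thereby disable the ubiquitin ligases ZNRF3 and RNF43, which otherwise clear Frizzleds from the cell surface. Of the 9 genes of this branch, *Lgr6* was lower in KO at an unadjusted edgeR p under 0.05 and none was higher (11.1%, against 8.94% of all genes tested). *Lgr6* was at 18.5, 19.3, 20.3 and 20.1 CPM in WT and at 13.4, 14.0 and 15.9 CPM in KO. The genotypes did not overlap, and the WT values were tight, with a coefficient of variation of 4.16%. The fitted level was 1.35-fold lower in KO (log2 fold change −0.44, SE 0.077), with an adjusted p of 0.162 in edgeR and 0.00105 in DESeq2, and the size stayed under the threshold of 0.5 in both. Without single libraries the log2 fold change ran from −0.51 to −0.39.

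*Rnf43* showed the opposite separation at a low level. It was at 2.31, 2.44, 2.45 and 2.14 CPM in WT and at 2.52, 2.77 and 3.43 CPM in KO, with KO replicate 2 only just above the highest WT library. EdgeR gave a log2 fold change of 0.32 (SE 0.143, unadjusted p = 0.054, adjusted p = 0.568). The assignment to transcript forms was unstable. The leading form *Rnf43-202* held 0 to 80.5% of *Rnf43* TPM and was at 0 TPM in WT replicate 4 and KO replicate 4. *Znrf3*, the paralog of *Rnf43*, was at 18.1, 22.1, 18.3 and 20.9 CPM in WT and at 19.6, 19.2 and 20.8 CPM in KO (edgeR log2 fold change 0.00, SE 0.085, adjusted p = 0.998). *Lgr4*, the most abundant receptor for R-spondins here, was at 84.9, 114.4, 102.9 and 140.3 CPM in WT and at 83.8, 75.8 and 109.7 CPM in KO (edgeR log2 fold change −0.30, SE 0.175, adjusted p = 0.659). Its WT and KO ranges overlapped. The ligands themselves gave log2 fold changes of −0.10 for *Rspo1*, 0.32 for *Rspo2* and −0.06 for *Rspo3*, and of 0.79 (SE 0.378) for *Rspo4*, which had 5 to 17 reads per library. *Lgr5* varied more within genotypes than between them, from 5.59 to 17.3 CPM in WT and from 4.03 to 13.5 CPM in KO.

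Of the 12 Frizzled and Lrp genes, *Fzd1* stood alone. *Fzd1* was at 127.4, 140.9, 114.9 and 124.2 CPM in WT and at 95.2, 87.1 and 90.3 CPM in KO, so the highest KO library was below the lowest WT library. The fitted level was 1.40-fold lower in KO (log2 fold change −0.48, SE 0.075, unadjusted p = 0.000129). The adjusted p was 0.111 in edgeR and 2.5e-05 in DESeq2, and the log2 fold change was just short of the 0.5 required for a call in both, at −0.48 in each. With no filter on low counts the adjusted edgeR p was 0.0355 at a log2 fold change of −0.47, and over all alternatives in edgeR and limma-voom the adjusted p ran from 0.0355 to 0.381. Leaving out single libraries moved it between −0.53 and −0.43, and no such fit called it. The share of *Fzd1* in the summed Frizzled TPM was 38.4 to 42.98% in WT and 31.9 to 34.4% in KO. This share describes the same *Fzd1* values and is not separate support.

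*Fzd1* and *Lgr6* were the members whose lower KO values separated from WT. Markers of some cell types were also lower in the same KO libraries, mostly with overlap between genotypes. The summed level of the 7 theca and steroidogenic markers was 11400 to 14000 CPM in WT and 9493 to 10780 CPM in KO, that of the 7 smooth muscle and pericyte markers 1953 to 2556 and 1486 to 1986 CPM, and that of the 8 endothelial markers 1041 to 1182 and 993.5 to 1048 CPM. Of these sums, only that of the theca markers did not overlap. Gene by gene, 1 of 7 theca, 3 of 7 smooth muscle and 2 of 8 endothelial markers did not overlap. All 7 theca markers and all 7 smooth muscle markers had negative log2 fold changes. So did 7 of 8 endothelial, 9 of 10 surface epithelium and 7 of 8 fibroblast markers. All 7 oocyte and all 5 erythrocyte markers had positive ones. At an unadjusted edgeR p under 0.05, 2 theca (28.6%) and 4 smooth muscle markers (57.1%) were lower in KO. The shares were 25% for endothelial, 20% for surface epithelium and 12.5% for fibroblast markers, against 5.1% lower among all genes. In the theca and smooth muscle lists the most pronounced was *Des*, the muscle intermediate filament desmin, at −0.78 (SE 0.152). *Aldh1a1*, a retinal dehydrogenase in the theca list, followed at −0.73 (SE 0.252) and *Cnn1*, smooth muscle calponin, at −0.70 (SE 0.151). *Des* and *Cnn1* did not overlap between genotypes, while *Aldh1a1* overlapped. *Upk3b* of the surface epithelium list (−1.07, SE 0.302) and *Tcf21* of the fibroblast list (−0.39, SE 0.089) also did not overlap. The part of these cell type markers in the *Fzd1* and *Lgr6* values was not tested.

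The other receptors overlapped between genotypes. *Lrp5*, a signaling co-receptor, was at 149.4, 140.1, 142.9 and 135.5 CPM in WT and at 149.2, 130.4 and 158.2 CPM in KO. EdgeR gave a log2 fold change of 0.04 (SE 0.074, adjusted p = 0.916). Its partner *Lrp6* gave −0.02 (SE 0.061) and *Fzd2* −0.01 (SE 0.065). The remaining Frizzleds had log2 fold changes from −0.17 for *Fzd6* to 0.28 for *Fzd9*, and −0.43 (SE 0.380) for *Fzd10*, which had only 6 to 14 reads per library.

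The antagonist *Sfrp2* showed the largest difference of all 43 tested members. SFRP2 carries a Frizzled-like cysteine-rich domain with which it binds Wnt proteins outside the cell. *Sfrp2* was at 15.1, 15.4, 12.2 and 15.6 CPM in WT and at 60.6, 30.7 and 46.4 CPM in KO, that is 14.6 ± 1.57 CPM (SD, n = 4) and 45.9 ± 14.9 CPM (SD, n = 3). Every KO library was above every WT library, and the KO libraries differed from each other far more than the WT libraries did, with KO replicate 3 the lowest. The fitted level was 3.15-fold higher in KO (log2 fold change 1.65, SE 0.198, unadjusted p = 1.7e-05). In the same libraries, the 8 fibroblast markers summed to 4531 to 7245 CPM in WT and 4694 to 5356 CPM in KO. Of these, 7 had negative log2 fold changes. Only *Tcf21* of them did not overlap, at 86.3 to 107.4 CPM in WT and 67.3 to 76.1 CPM in KO. The 7 oocyte markers, all with positive log2 fold changes, summed to 242.2 to 309.9 CPM in WT and 263.0 to 388.2 CPM in KO. Both sums overlapped between genotypes. The part of the fibroblast and oocyte markers in the *Sfrp2* values, and that of the theca and smooth muscle genes, was not tested.

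Whether *Sfrp2* passed the threshold depended on the test. The edgeR adjusted p was 0.0544, just over the limit, and the DESeq2 adjusted p was 2.7e-13 at a log2 fold change of 1.66. Across the other settings, adjusted p ran from 0.00128 to 0.165, and log2 fold changes from 1.40 without KO replicate 2 to 1.88 without KO replicate 3. Leaving out KO replicate 3 also brought the edgeR adjusted p to 0.00603, while leaving out any other single library left it between 0.0786 and 0.165. The reads went to the protein-coding form *Sfrp2-201* in all libraries (92.8 to 100% of *Sfrp2* TPM), from 10.1 to 12.8 TPM in WT and from 25.0 to 48.4 TPM in KO. A long noncoding gene annotated on the opposite strand within *Sfrp2*, *Gm26771*, reached at most 0.0208 CPM, and another, *Gm30293*, is not among the quantified transcripts.

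By level, *Sfrp2* was a minor antagonist in both genotypes. It held 0.692 to 0.925% of antagonist TPM in WT and 1.74 to 3.45% in KO. *Sfrp4* was at 956.7, 1315, 1129 and 1427 CPM in WT and at 1090, 1090 and 1500 CPM in KO, an edgeR log2 fold change of 0.02 (SE 0.160, adjusted p = 0.982). *Frzb* was at 409.0, 337.2, 348.2 and 320.6 CPM in WT and at 401.5, 444.3 and 329.7 CPM in KO (edgeR log2 fold change 0.15, SE 0.116, adjusted p = 0.757). Both genes overlapped between genotypes. *Sfrp1*, *Dkk2*, *Dkk3* and *Wif1* gave log2 fold changes of −0.03, −0.19, 0.12 and 0.30, with adjusted edgeR p of 0.740 or more, and *Dkk3* was the only Dickkopf above 10 TPM.

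**Figure D3:**
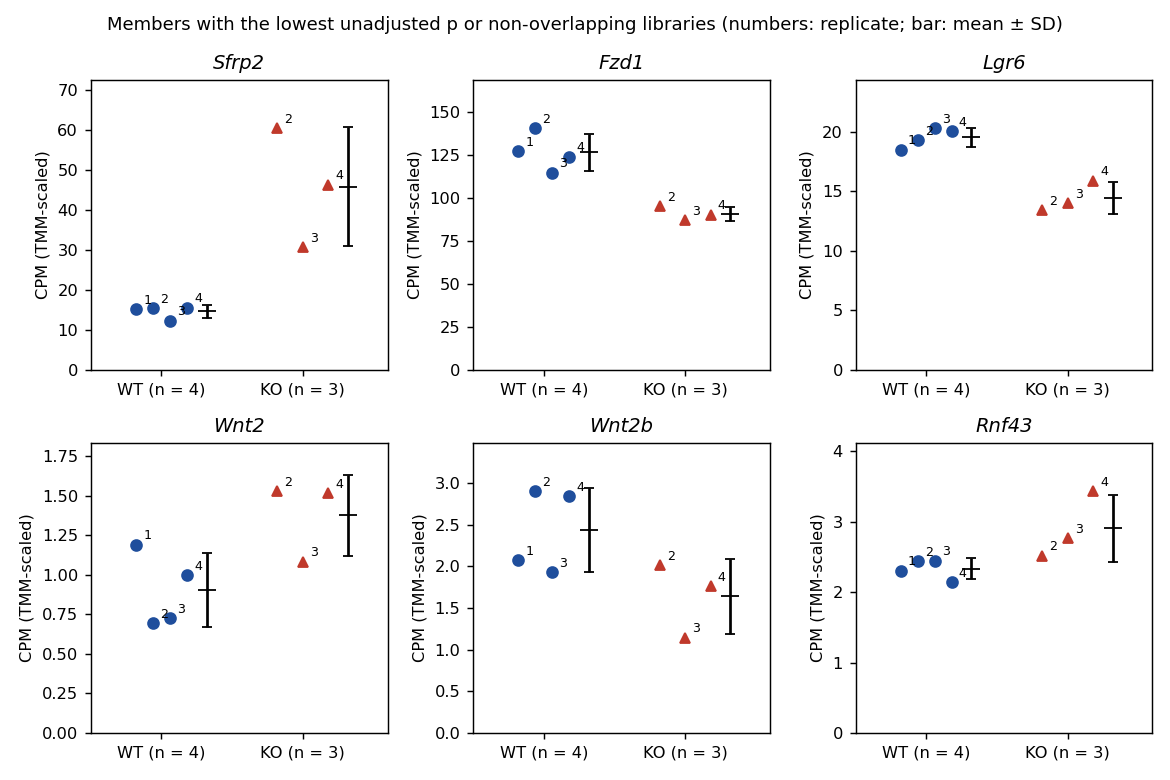
CPM in each library (number = replicate; y axes start at 0) for the 5 members with an unadjusted edgeR p under 0.05 and for *Rnf43*, with the mean and SD of each genotype as a bar beside the points. *Sfrp2*, *Fzd1*, *Lgr6* and *Rnf43* show no overlap between WT and KO, while *Wnt2* and *Wnt2b* overlap.

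The transcriptional readouts of β-catenin did not separate by genotype. *Axin2*, a feedback inhibitor induced by β-catenin in many tissues, was at 13.0, 14.8, 12.9 and 12.8 CPM in WT and at 14.0, 14.3 and 14.7 CPM in KO. WT replicate 2 was the highest of all libraries and the other WT libraries were below all KO libraries. EdgeR gave a log2 fold change of 0.10 (SE 0.076, unadjusted p = 0.208, adjusted p = 0.742). *Tcf7*, a DNA-binding partner of β-catenin, was at 42.9, 49.7, 50.5 and 44.1 CPM in WT and at 38.0, 43.5 and 51.1 CPM in KO (edgeR log2 fold change −0.08, SE 0.104, adjusted p = 0.858). Its relative *Lef1* gave 0.01 (SE 0.147).

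The promoter windows of *Sfrp2* and *Fzd1* are shown because these members had the lowest p in each direction. Each window is the 250 bases before the start of the leading transcript, read from the GRCm39 genome in the direction of transcription, with CpG dinucleotides in capitals. The *Sfrp2* window is chr3:83673231-83673480 on the plus strand, before the 3-exon transcript *Sfrp2-201*, and the *Fzd1* window is chr5:4808036-4808285 on the minus strand, before the single exon of *Fzd1-201*.
Sfrp2: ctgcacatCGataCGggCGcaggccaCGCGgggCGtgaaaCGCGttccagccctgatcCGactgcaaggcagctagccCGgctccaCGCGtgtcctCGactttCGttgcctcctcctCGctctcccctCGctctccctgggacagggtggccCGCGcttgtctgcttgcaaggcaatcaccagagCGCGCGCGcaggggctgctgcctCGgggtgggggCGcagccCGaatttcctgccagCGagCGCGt
Fzd1: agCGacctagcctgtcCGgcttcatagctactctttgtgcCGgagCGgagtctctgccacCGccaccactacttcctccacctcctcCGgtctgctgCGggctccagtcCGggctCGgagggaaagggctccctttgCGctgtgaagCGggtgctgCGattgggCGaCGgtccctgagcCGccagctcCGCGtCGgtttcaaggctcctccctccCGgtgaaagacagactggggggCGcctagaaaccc

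Both windows were rich in CpG. The *Sfrp2* window held 28 CpG at a GC content of 68.8% and the *Fzd1* window 20 at 65.6%, against a median of 9 over the 19233 promoter windows of the genes tested and of 16 over the 43 members. The *Lgr6* window held 7. The range over the members was 2 to 36. The TCF/LEF core CTTTGA, searched on both strands, was found in 3 of 43 member windows (*Fzd7*, *Lrp6* and *Wif1*), against 12.8% of all windows. The core of the palindrome read by steroid receptors such as PGR, ACANNNTGT, which reads the same on both strands, was found in 3 (*Wnt2b*, *Wnt5b* and *Dkk3*), against 4.91% of all. Neither motif occurred in the *Sfrp2*, *Fzd1* or *Lgr6* window, which says only that these letters are absent from those 250 bases.

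Several member pairs are close in the genome. *Wnt1* and *Wnt10b* lie on opposite strands of chromosome 15 and overlap by 2308 bases. Their median WT levels were 0.042 TPM for *Wnt1* and 30.0 TPM for *Wnt10b*. *Wnt6* and *Wnt10a* lie 5699 bases apart on chromosome 1 in the same orientation, at median WT levels of 27.1 and 3.14 TPM. The pairs *Wnt3* and *Wnt9b*, and *Wnt3a* and *Wnt9a*, both on chromosome 11, also held 1 detected and 1 filtered gene each. Their median WT levels were 0.030 TPM for *Wnt3* and 0.161 TPM for *Wnt9b*, both low, and 0 TPM for *Wnt3a* and 1.35 TPM for *Wnt9a*.

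The rest of the pathway was examined as 4 further lists with 85 genes, of which 82 were tested. These were the secretion and transduction machinery, alternative co-receptors with planar polarity genes, other antagonists, and feedback or target genes. EdgeR, DESeq2 and limma-voom each called 0 of them, and 1, *Tle1*, passed the DESeq2 adjusted p alone. At an unadjusted edgeR p under 0.05 there were 4 higher and 5 lower in KO (11.0%), and the KO and WT libraries of 7 (8.54%) did not overlap, both close to the shares of all genes given above. The median log2 fold change was −0.03. The most abundant gene of each list moved little. *Ctnnb1*, which encodes β-catenin, was at 768.0, 738.8, 762.8 and 768.1 CPM in WT and at 719.7, 712.5 and 773.6 CPM in KO. *Gpc4*, a heparan sulfate proteoglycan, gave a log2 fold change of −0.10 (SE 0.127), *Igfbp4* 0.16 (SE 0.131) and *Fst*, the activin-binding protein follistatin, 0.14 (SE 0.094).

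In the transduction list of 33 genes, 4 were lower and 1 was higher at the unadjusted threshold. That was 15.2% of the list, against 8.94% of all genes tested (3.84% higher and 5.1% lower). The share without overlap was also 15.2%, against 9.05% of all genes tested. *Porcn*, the acyltransferase that attaches the lipid to Wnt ligands, was at 12.5, 18.2, 17.4 and 11.4 CPM in WT and at 8.04, 9.77 and 10.9 CPM in KO. The genotypes did not overlap, WT replicate 4 being nearest to KO, and edgeR gave a log2 fold change of −0.63 (SE 0.183, adjusted p = 0.355). *Wls*, which carries the lipid-bearing ligands to the cell surface, gave 0.07 and was at 182.6 to 200.3 CPM in WT and 194.8 to 207.9 CPM in KO. It was chosen after its values were seen.

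The Groucho corepressors, which hold TCF target genes silent, went both ways. *Tle1* was at 47.4, 54.8, 47.0 and 52.2 CPM in WT and at 38.4, 42.7 and 41.1 CPM in KO, without overlap (log2 fold change −0.31, SE 0.072, adjusted p = 0.259 in edgeR and 0.0435 in DESeq2). *Tle3* was at 74.6, 77.1, 74.7 and 65.4 CPM in WT and at 60.3, 59.6 and 63.8 CPM in KO, also without overlap (edgeR log2 fold change −0.25, SE 0.067, adjusted p = 0.315). *Tle2*, in contrast, was at 84.0, 94.9, 103.5 and 89.6 CPM in WT and at 112.9, 97.9 and 106.4 CPM in KO, with overlap (edgeR log2 fold change 0.19, SE 0.081, adjusted p = 0.552). *Amer1*, a scaffold of the β-catenin destruction complex, was at 28.9, 28.8, 28.5 and 26.7 CPM in WT and at 21.5, 22.9 and 27.6 CPM in KO (edgeR log2 fold change −0.23, SE 0.088, adjusted p = 0.476).

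In the other lists, 3 genes were higher and 1 was lower at the unadjusted threshold. By list that was 4.35% of the co-receptor and planar polarity genes, 9.09% of the other antagonists and 13.3% of the feedback or target genes. Among all genes tested it was 8.94%. *Tpbg*, a membrane inhibitor of Wnt signaling, was at 23.8, 25.8, 24.3 and 23.8 CPM in WT and at 29.7, 26.6 and 30.1 CPM in KO, without overlap (edgeR log2 fold change 0.24, SE 0.065, adjusted p = 0.319). *Celsr2*, a planar polarity cadherin, was at 5.82, 8.15, 6.76 and 7.75 CPM in WT and at 9.76, 7.42 and 11.4 CPM in KO (edgeR log2 fold change 0.42, SE 0.164, adjusted p = 0.498). *Zcchc12* was at 0.826, 0.894, 0.834 and 0.707 CPM in WT and at 1.09, 1.06 and 1.29 CPM in KO (edgeR log2 fold change 0.50, SE 0.166, adjusted p = 0.406), again without overlap. *Ccn5*, a matricellular protein first described as Wnt-induced, was at 27.8, 69.8, 55.8 and 50.1 CPM in WT and at 25.2, 20.6 and 37.5 CPM in KO, where WT replicate 1 fell among the KO libraries (edgeR log2 fold change −0.87, SE 0.299, adjusted p = 0.421).

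**Figure D4:**
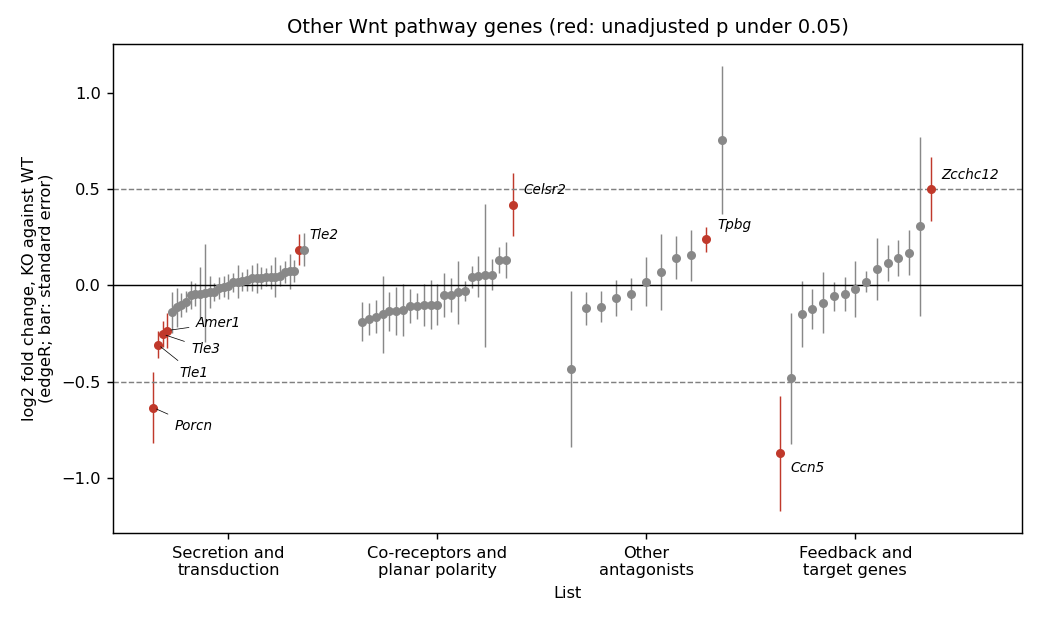
Log2 fold change of KO against WT from edgeR, with standard error, for the 82 tested genes of the 4 further Wnt pathway lists, in rising order within each list. Red points with names are the 9 genes with an unadjusted p under 0.05; the dashed lines mark the threshold of 0.5, and most genes cluster around 0.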

How the data were processed

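Paired-end reads of 100 bp from a stranded mRNA kit were quantified by the authors with Salmon against the GENCODE M26 mouse transcriptome (GRCm39); the Salmon version and library-type setting are not given in the sources used here. The deposited files give expected counts (estimated, not whole), TPM and effective length for 139225 transcripts per library. Here 137570 transcripts (98.8%, with at least 99.4% of reads) were matched to genes of GENCODE M39, and counts were summed per gene and rounded. TPM was summed per gene as deposited and used for levels between genes.

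KO was compared with WT by edgeR 4.0.16 in R 4.3.3 (filterByExpr, TMM, quasi-likelihood F test, two-sided, genotype only, Benjamini-Hochberg over 19233 genes). The common biological coefficient of variation was 0.127. Standard errors are the log2 fold change over the root of F. DESeq2 1.42.0 (Wald test, without independent filtering) and limma-voom 3.58.1 were alternatives, with median-of-ratios scaling, unfiltered genes, a minimum of 10 counts in every library, length offsets, a replicate block, another quasi-likelihood setting and leave-one-out. The scripts were tested on simulated counts.

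Members and gene lists were chosen with earlier results of these data known. Named with the value in every library were *Sfrp2*, members with an unadjusted p under 0.05 or without overlap at a mean of at least 1 CPM, and the 2 most abundant members of each role; of the other lists, genes with an unadjusted p under 0.05 and the most abundant one. Same-numbered WT and KO libraries came from different mice, and their deviations correlated by 0.035, 0.175 and 0.139. Differently numbered ones correlated by −0.219 to 0.226, so the numbers were not taken as pairs. Whether same-numbered pools shared litters was not tested. Motif and CpG counts used the 250 bases before each leading transcript. Protein sequences were not used here.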

Additional observations from a re-analysis of the deposited data

Results flagged for a closer look

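In 3 of the 43 tested members, 1 WT library stood far from the other 3 by Dixon's criterion. Chance marks about 1 group in 20. *Fzd4*, a Frizzled of the vasculature, was at 66.5 CPM in WT replicate 4, against at most 58.4 CPM in the other WT libraries and 51.7 to 60.5 CPM in KO. *Sfrp2* was at 12.2 CPM in WT replicate 3, the lowest of the WT libraries, with the next at 15.1 CPM, and without that library its edgeR log2 fold change was 1.58 with an adjusted p of 0.165. *Axin2* was at 14.8 CPM in WT replicate 2, against at most 13.0 CPM in the other WT libraries and 14.0 to 14.7 CPM in KO.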

How the results depend on the processing

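The count of called members was 0 in the edgeR fit and 1 (*Sfrp2*) under DESeq2, with no filter, with at least 10 counts in every library, under another quasi-likelihood setting and with a replicate block. Leaving out single libraries gave 0 to 1 called members, 3 to 9 at an unadjusted p under 0.05 and 6 to 10 without overlap; without WT replicate 1 there were 9 and 8, without WT replicate 2 there were 3 and 6, without KO replicate 2 there were 6 and 8, without KO replicate 3 there were 4 and 7, and without KO replicate 4 there were 7 and 10. Fewer libraries make an overlap less likely by construction. The replicate block raised the count at an unadjusted p under 0.05 from 5 to 11, with an adjusted p of 0.0220 for *Sfrp2*; the shared numbers do not pair mice, and not every library correlated best with its own number. The cause of the other differences was not tested. Over 28 genes and 15 settings, 401 of 420 fold changes kept direction and side of the threshold, 6, all of *Sfrp2*, passed the threshold and 13, in 6 genes that no setting called, changed sign. With length offsets *Znrf3* went to −0.0099 and *Ctnnb1* to 0.0062, and with the replicate block *Znrf3* went to −0.038 and *Sfrp4* to −0.083. Leaving out single libraries moved *Znrf3* between −0.036 and 0.055, *Lrp5* between −0.019 and 0.12, *Sfrp4* between −0.14 and 0.12, *Tcf7* between −0.20 and 0.015 and *Gpc4* between −0.17 and 0.019. No setting called any of the other pathway genes. A check added after seeing the data, the adjusted p without a fold change threshold, gave 0 members in edgeR, 3 in DESeq2, 2 with no filter (*Sfrp2* and *Fzd1*), and 1 (*Sfrp2*) with at least 10 counts in every library, with the replicate block, under the other quasi-likelihood setting and without KO replicate 3, and 0 in the other settings. Members under 1 TPM rest on few reads.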

Other observations

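*Lgr5* and *Wnt7b* varied most between WT libraries of the 43 tested members, with coefficients of variation of 55.9% and 56.4% against a median of 10.9%. They were singled out after their values were seen. *Lgr5* was at 5.59, 17.3, 10.46 and 5.82 CPM in WT and at 4.03, 5.19 and 13.5 CPM in KO, and *Wnt7b* at 0.749, 2.50, 1.37 and 0.949 CPM in WT and at 0.643, 0.938 and 1.78 CPM in KO. Both were highest in WT replicate 2 and, within KO, in KO replicate 4. *Wnt10b* had its highest values in the same libraries, 59.4 CPM in WT replicate 2 and 64.1 CPM in KO replicate 4. The genotype difference of these genes was smaller than this spread, with edgeR log2 fold changes of −0.36 (SE 0.498) for *Lgr5*, −0.30 (SE 0.460) for *Wnt7b* and 0.14 (SE 0.203) for *Wnt10b*.

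*Wnt16*, under the count filter, had 2 to 14 reads per library, at 0.135, 0.0795, 0.0355 and 0.0643 CPM in WT and 0.122, 0.292 and 0.242 CPM in KO. Fitted by edgeR with no filter, its log2 fold change was 1.46 (SE 0.497, unadjusted p = 0.0111, adjusted p = 0.489), and the WT and KO libraries overlapped. The R-spondin branch held 2.57 to 3.11% of the summed member TPM in WT and 2.42 to 2.50% in KO, a description that was not tested. The summed TPM of the branch itself overlapped, at 42.2 to 65.6 in WT and 46.3 to 61.7 in KO.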
